A study of Mus musculus with 16 samples.

Results

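The genes described here are 33 cytokines, chemokines and NF-kB targets in mouse liver RNA-seq, taken by gene symbol from the 33730 genes of the deposited count table. Each symbol matched 1 gene. By role they comprise 8 cytokines, 9 CC chemokines, 5 CXC chemokines, 6 NF-kB subunits, inhibitors and receptors, and 5 adhesion molecules and enzymes. The study asked what the NRF2 activator CDDO-Me (bardoxolone methyl, a synthetic triterpenoid) does in livers with and without NRF2, the transcription factor encoded by Nfe2l2 that switches on antioxidant genes. There were 4 groups of 4 libraries. KO CDDO-Me livers came from Nrf2-/- mice given CDDO-Me, WT CDDO-Me livers from wild type mice given CDDO-Me, KO untreated livers from Nrf2-/- mice left without treatment, and WT DMSO livers from wild type mice given the solvent DMSO. All mice were C57BL/6, and all samples are day 0 liver, removed at the partial hepatectomy that started the regeneration experiment. The dose was 3 mg/kg of CDDO-Me in DMSO, or 1 µL/g of DMSO alone, injected into the abdomen 24 h and again 1 h ahead of surgery according to the treatment protocol, whereas the design text places the resection 24 h after treatment. The KO controls had no solvent injection according to their label, so the drug and the solvent cannot be told apart in KO CDDO-Me against KO untreated, nor genotype and solvent in KO untreated against WT DMSO. The difference between the KO and WT drug responses likewise holds the solvent on its KO side, and cannot be told apart from it. The labels do not tie each library to its own animal, so p-values measure the spread between these samples.

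NF-kB transcription factors are held in the cytoplasm by inhibitors such as the product of Nfkbia and, when tumour necrosis factor, interleukin-1 or microbial products reach a cell, move to the nucleus and induce cytokines, chemokines, adhesion molecules and their own inhibitors. In liver these signals come largely from Kupffer cells, the resident macrophages, and hepatocytes answer with chemokines such as CXCL1 and with acute phase proteins. NF-kB and interleukin-6 signalling are also known for priming hepatocytes to divide after partial hepatectomy.

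The promoters of Cxcl1, Cxcl2 and Nfkbia are shown first. Cxcl1 is the called member with the largest fold change, and its neighbour Cxcl2 carries the same NF-kB element. Cxcl2 and Nfkbia were called in no comparison on all libraries. The called members Ccl5 and Il18 are not among those with a match below. The part of the element in the Cxcl1 change was not tested. The sequences are RefSeq promoter stretches of GRCm38.p6 that end before the first base of the gene, 5′ to 3′ on the gene's strand, with the NF-kB consensus match in capitals. They are Cxcl1 at chr5:90891095-90891240 on the plus strand, Cxcl2 at chr5:90903749-90903870 on the plus strand and Nfkbia at chr12:55492648-55492797 on the minus strand.
Cxcl1: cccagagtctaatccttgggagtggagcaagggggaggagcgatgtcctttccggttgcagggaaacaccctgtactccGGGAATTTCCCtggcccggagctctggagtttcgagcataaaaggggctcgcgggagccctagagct
Cxcl2: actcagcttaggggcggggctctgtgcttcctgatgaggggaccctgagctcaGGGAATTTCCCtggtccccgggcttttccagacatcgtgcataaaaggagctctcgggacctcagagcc
Nfkbia: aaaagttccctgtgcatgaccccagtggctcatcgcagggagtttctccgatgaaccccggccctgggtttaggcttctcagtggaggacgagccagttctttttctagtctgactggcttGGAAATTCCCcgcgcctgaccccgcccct
Cxcl1 and Cxcl2 held the same capital letters, the union of overlapping matches on both strands, and a window with several matches was counted once. Overlapping windows of Nfkb2 shared a match, and each of those windows was counted. The 10-letter NF-kB consensus, searched on both strands of the RefSeq promoter windows, was present in 8 of the 21 members that have a promoter sequence there (Ccl9, Csf1, Cxcl1, Cxcl2, Il6, Nfkb2, Nfkbia and Tnfaip3), or 10 of their 26 windows. Among all 32851 windows, 4.51% held it. The letters TGACNNNGC, the core of the element that NRF2 binds, were found in Cxcl13 and Nfkbia, and in 12.4% of all windows. A match describes these letters and is not a measured binding site.

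Reads counted in genes ran from 12002317 to 99284626 per library, the most in WT CDDO-Me 1, and 20453 to 27594 genes had a read. A gene with no read in a library could still reach 0.0302 CPM (reads scaled to the library total, TMM-adjusted) in WT CDDO-Me 1 or 0.25 CPM in WT DMSO 2, the level of 3 reads in the library's total, which covers counting error only. The summed level of 16 hepatocyte markers was 67461 to 149412 CPM over the 16 libraries, and each marker was detected in each group. Nfe2l2 itself had 15.7 to 21.0 CPM in KO CDDO-Me, 36.6 to 45.5 CPM in WT CDDO-Me, 51.7, 35.5, 19.9 and 21.3 CPM in KO untreated, against 42.8 to 74.9 CPM in WT DMSO. Thus the library labelled KO untreated 1 lay within the WT range for Nfe2l2 and the one labelled KO untreated 2 just below it, and by FPKM both lay within it (19.1 and 11.5 against 7.45 to 20.9 for Nfe2l2). Nqo1, an NRF2 target, had 0.508, 0.434, 0.897 and 1.19 CPM in KO untreated against 3.21 to 4.22 CPM in WT DMSO. Which exons the Nrf2-/- allele lacks is not given in the sources used here. Genes of the GENCODE classes sense intronic and TEC made up 0.673% to 0.967% of counts in the libraries KO untreated 1 and 2 and WT DMSO 1 and 2, and 0.186% to 0.407% in the other 12. The former libraries are called intron-rich below, although reads in the introns of other genes were not counted apart. Ribosomal RNA took 0.00108% to 0.0368% of counts in the KO libraries, WT DMSO 4 and WT CDDO-Me 1, and 0.173% to 0.634% in the other 6 WT libraries. Genotype thus goes with the share of ribosomal RNA except in WT DMSO 4 and WT CDDO-Me 1.

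The library WT DMSO 4 stood apart for these genes. It had the highest level among the 16 libraries for 25 of the 33 members, against 12.5% of all genes tested. The 33 include 11 members with too few reads to test. Among tested members it was highest for 2 of 5 cytokines, 2 of 5 CC chemokines and 3 of 4 CXC chemokines. It was also highest for 6 of 6 NF-kB genes and 2 of 2 adhesion molecules. It had the highest level of its own group for 30 members, 19 of them among the 22 tested, and for 4901 of all 16206 genes tested. In 22 members, 11 of them among the 22 tested, it exceeded the median of the other 3 WT DMSO libraries by over 4 times, as 2.55% of all genes tested did. The median ratio was 4.39 over the tested members and 0.988 over all genes tested. Interferon response genes moved with it, at a summed 3557 CPM in WT DMSO 4 against 396 to 868 CPM in the other 15 libraries. The sum of the neutrophil and monocyte markers was 51.4 CPM there and between 7.56 and 12.1 CPM in WT DMSO 1 to 3, while that of the Kupffer cell and macrophage markers was 425 CPM against 439 to 454 CPM. No marker of either cell type was at 0 in the whole WT DMSO group, and the part of these cells in the pattern was not tested. Fold changes and counts that involve WT DMSO are therefore given with and without that library.

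**Figure D1:**
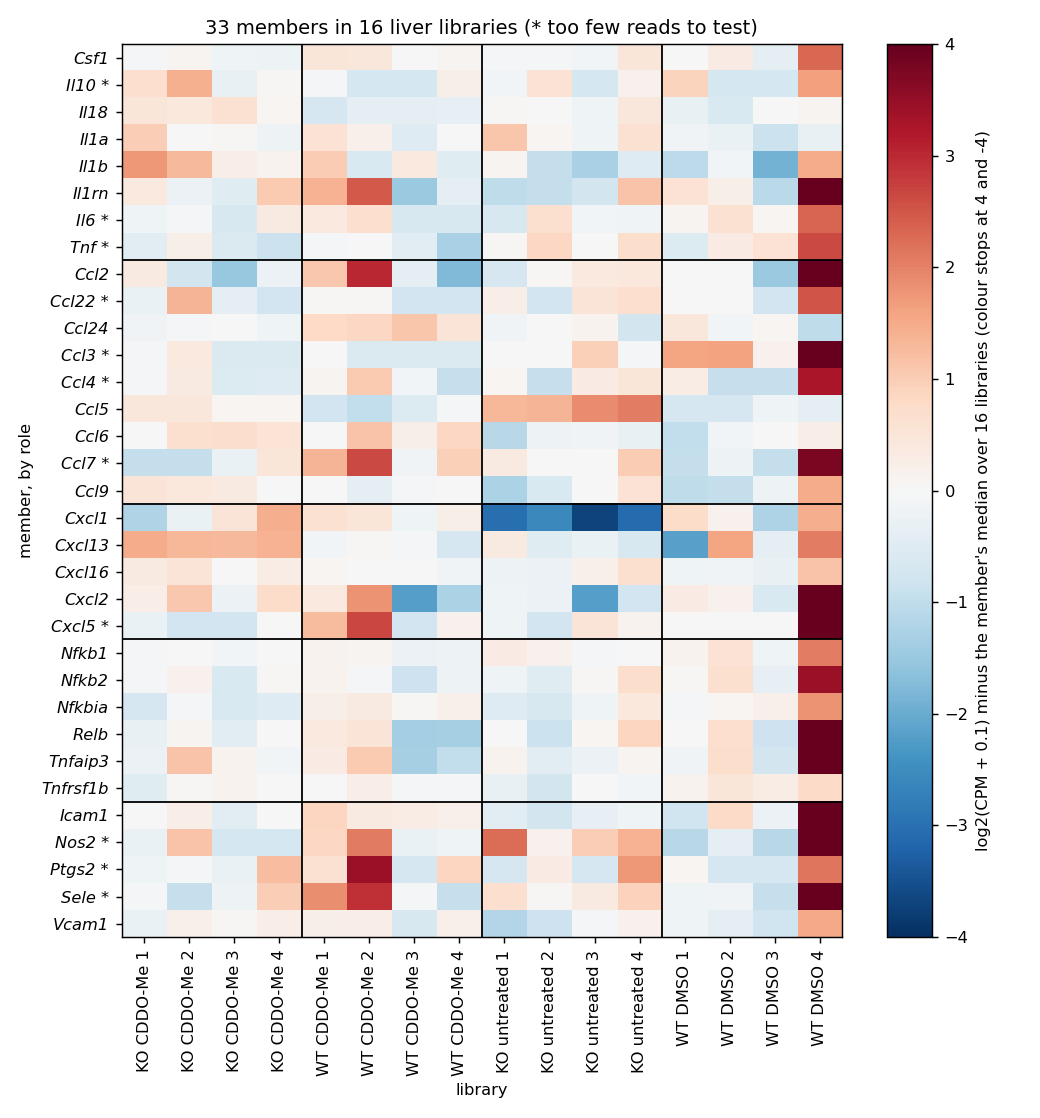
Level of each of the 33 members (rows, by role) in each of the 16 libraries (columns), as log2(CPM + 0.1) minus the member's median over the libraries. WT DMSO 4, the last column, is the highest library for 25 members, Cxcl1 is low in the 4 KO untreated libraries and Ccl5 is high there.

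Per kilobase of gene length, the members spanned a wide range. By the median FPKM (CPM per kilobase of gene, without TMM scaling) over 16 libraries, Cxcl1 was highest at 45.6, followed by Nfkbia at 26.5, Tnfrsf1b at 14.4, Ccl9 at 10.5 and Il18 at 6.42. The ranges of these neighbours overlapped, for example 3.96 to 151 FPKM for Cxcl1 and 16.8 to 77.9 FPKM for Nfkbia. Icam1, Vcam1, Nfkb2, Nfkb1, Cxcl16, Ccl6, Il1b, Csf1 and Il1a followed with medians of 4.28 to 1.56 FPKM. The medians of Ccl24, Tnfaip3, Relb, Ccl2, Cxcl13, Il1rn, Ccl5 and Cxcl2 lay between 0.956 and 0.212 FPKM. The other 11 members, Ccl4, Ccl7, Tnf, Ccl3, Il10, Cxcl5, Sele, Ccl22, Nos2, Il6 and Ptgs2, had medians of 0.146 FPKM or less. These 11 did not pass the filter on low counts, Nos2 and Cxcl5 because nearly all their reads lay in WT DMSO 4, so the counts below are over 22 members.

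With CDDO-Me in WT livers, none of the 22 members passed the test (edgeR quasi-likelihood, Benjamini-Hochberg adjusted p under 0.05), against 0.728% of all 16206 genes. DESeq2 called 1, Nfkb2, and limma on log2(FPKM + 1) called 0. At an unadjusted p under 0.05, 2 members were higher and 8 lower, against 6.91% and 8.42% of all genes. The median log2 fold change was -0.47 over the tested members and -0.02 over all genes. Without WT DMSO 4 the number called was again 0, against 1.34% of genes, while the median over members was 0.25, with 3 members higher and 0 lower at an unadjusted p under 0.05, against 10.9% and 12.1% of all genes. By CPM, Ccl24 was the 1 member whose WT CDDO-Me libraries all lay above the WT DMSO libraries, and 0 members lay wholly below. Over all genes the shares were 4.36% and 2.84%. By FPKM the 2 groups overlapped for Ccl24.

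With CDDO-Me in KO livers, Cxcl1 rose and no other member was called, against 0.130% of all genes, and 4 members were higher and 1 lower at an unadjusted p under 0.05, against 6.24% and 9.58%. Without WT DMSO 4, which contributes only to the shared spread here, Cxcl1 rose and Ccl5 fell, against 0.816% of genes called. By CPM the KO CDDO-Me libraries lay wholly above KO untreated for Ccl6, Cxcl1, Cxcl13 and Il1b, and wholly below for Ccl5. Over all genes the shares were 5.98% and 4.50%. By FPKM the groups overlapped for Ccl6 and Il1b. The median log2 fold change was 0.25 over the tested members and -0.04 over all genes.

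Between genotypes without the drug, Ccl5 rose and Cxcl1 fell in KO untreated livers relative to WT DMSO, against 1.38% of all genes called. At an unadjusted p under 0.05, 2 members were higher and 13 lower, against 6.65% and 7.46% of genes, with a median of -0.87 over members and 0.00 over all genes. Without WT DMSO 4, Ccl5 and Cxcl1 were again the 2 called, against 1.28% of genes, the median over members was -0.07, and 2 members were higher and 2 lower at an unadjusted p under 0.05, against 7.0% and 6.38% of genes. In that fit genotype cannot be told apart from the share of ribosomal RNA. By CPM the groups did not overlap for Ccl5 (higher) and for Cxcl1 and Tnfrsf1b (lower), against 2.87% and 3.04% of all genes. By FPKM they overlapped for Tnfrsf1b.

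Between genotypes under CDDO-Me, Il18 rose in KO relative to WT livers and no other member was called, against 3.30% of all genes. At an unadjusted p under 0.05, 3 members were higher and 1 lower, against 7.92% and 9.16%, with a median of 0.04 over members and -0.01 over all genes. Leaving out WT DMSO 4, Il18 rose and Ccl24 fell, against 5.03% of genes called. By CPM the groups did not overlap for Ccl5, Cxcl13 and Il18 (higher) and for Ccl24 and Nfkbia (lower), against 9.25% and 9.82% of all genes. By FPKM they overlapped for Nfkbia. For the difference between the 2 drug responses, KO minus WT, edgeR called 0 members against 0.130% of genes, and 0 members against 0.196% without WT DMSO 4. DESeq2 called 2, Cxcl1 and Cxcl13, and limma on log2(FPKM + 1) called 1, Ccl5. At an unadjusted p under 0.05, 6 members were higher and 1 lower, against 3.57% and 4.96% of genes, with a median of 0.82 over members and -0.01 over all genes. With that library left out the median over members was -0.04, and 2 were higher and 2 lower, against 3.09% and 5.65% of genes. The pairwise comparisons share groups with one another, so their member counts are not independent.

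Among the 5 cytokines tested, Il18 was the 1 called, in 1 comparison. Il18, which encodes a cytokine of the interleukin-1 family that needs caspase cleavage to become active, lies at chr9:50554827-50581840 (plus strand, GENCODE M21, GRCm38). Il18 had 10.2, 9.76, 11.1 and 7.74 CPM in KO CDDO-Me livers, 4.57, 5.51, 5.69 and 5.78 CPM in WT CDDO-Me livers, 7.52, 7.43, 6.51 and 10.1 CPM in KO untreated livers and 5.87, 4.72, 7.16 and 7.85 CPM in WT DMSO livers. All KO CDDO-Me libraries were above all WT CDDO-Me libraries, while the 2 control groups overlapped. Under the drug Il18 was 1.81-fold higher in KO than in WT (log2 fold change 0.85 ± 0.19 SE, edgeR adjusted p = 0.0214). That call was lost when KO CDDO-Me 1, 2 or 3, or any 1 of the WT CDDO-Me libraries, was left out (adjusted p = 0.0576 to 0.0762), although the log2 fold change stayed between 0.77 and 0.95 over all leave-one-out fits. In bulk liver, here and below, fewer cells of a type and less RNA per cell cannot be told apart.

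Il1b and Il1a, which encode the pro-inflammatory interleukin-1 beta and alpha, did not pass the test in any comparison. Il1b had 11.9, 8.71, 4.21 and 3.82 CPM in KO CDDO-Me, 7.08, 2.23, 4.58 and 2.48 CPM in WT CDDO-Me, 3.81, 1.74, 1.37 and 2.43 CPM in KO untreated and 1.64, 3.19, 0.870 and 9.92 CPM in WT DMSO. The KO CDDO-Me libraries all lay above KO untreated, by a narrow margin between 3.82 and 3.81 CPM. By FPKM they overlapped, with 2.02 in KO CDDO-Me 4 against 2.81 in KO untreated 1. Between these groups the difference was 1.61 ± 0.62 on the log2 scale, with an edgeR adjusted p of 0.263. Il1a averaged 4.40 ± 1.82 CPM in KO untreated and 2.38 ± 0.490 CPM in WT DMSO (SD, n = 4 each), or 0.88 ± 0.34 on the log2 scale by edgeR (adjusted p = 0.235), and 0.91 without WT DMSO 4. In the drug-treated groups Il1a averaged 3.81 ± 1.64 CPM in KO and 3.36 ± 1.08 CPM in WT.

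Il1rn encodes the interleukin-1 receptor antagonist, which blocks the receptor that both interleukins use. Il1rn had 3.12, 2.01, 1.66 and 4.95 CPM in KO CDDO-Me, 6.43, 13.5, 0.790 and 1.84 CPM in WT CDDO-Me, 1.12, 1.16, 1.37 and 5.37 CPM in KO untreated and 3.62, 2.78, 1.07 and 143 CPM in WT DMSO. A single library, WT DMSO 4, held the high value, and the other 15 overlapped between groups. On the log2 scale edgeR gave -2.73 ± 1.2 for WT CDDO-Me against WT DMSO (edgeR adjusted p = 0.300) and -4.05 ± 1.28 for KO untreated against WT DMSO (edgeR adjusted p = 0.137). These became 1.2 and -0.13 without WT DMSO 4. Csf1, the growth factor of macrophages, repeated this shape since WT DMSO 4 had 44.0 CPM and the remaining 15 libraries 6.89 to 12.5 CPM. Its log2 fold change for KO untreated against WT DMSO was -0.91 ± 0.43 (edgeR adjusted p = 0.346), and 0.08 without that library.

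The classical inducers Tnf and Il6 and the anti-inflammatory cytokine Il10 were barely detected. Tnf had 0.0809, 0.191, 0.0637 and 0.0344 CPM in KO CDDO-Me, 0.133, 0.149, 0.079 and 0 CPM in WT CDDO-Me, 0.152, 0.338, 0.142 and 0.298 CPM in KO untreated and 0.0682, 0.208, 0.268 and 1.42 CPM in WT DMSO. Il6 had 0.0405, 0.0479, 0 and 0.103 CPM in KO CDDO-Me, 0.105, 0.149, 0 and 0 CPM in WT CDDO-Me, 0, 0.145, 0.0472 and 0.0426 CPM in KO untreated and 0.0682, 0.139, 0.0669 and 0.689 CPM in WT DMSO. The highest values, both in WT DMSO 4, rested on 31 reads of Tnf and 15 reads of Il6, and the other libraries had at most 14 and 11 reads. Il10 ranged from 0 to 0.413 CPM over the 16 libraries. None of the 3 was tested.

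Among the CC chemokines, Ccl5 stood out in the untreated KO livers. Ccl5 (RANTES), which draws T cells and other leukocytes, lies at chr11:83525778-83530518 on the minus strand. Ccl5 had 0.567, 0.574, 0.414 and 0.413 CPM in KO CDDO-Me, 0.190, 0.149, 0.237 and 0.367 CPM in WT CDDO-Me, 1.12, 1.16, 1.70 and 1.92 CPM in KO untreated and 0.205, 0.208, 0.335 and 0.276 CPM in WT DMSO. The KO untreated libraries were the 4 highest of the 16, the KO CDDO-Me libraries came next, and the 2 WT groups overlapped each other. These levels are low, with 51 reads in the 4 KO CDDO-Me libraries together, 127 in KO untreated and 17 in WT DMSO. Ccl5 passed the filter on low counts through KO untreated, the group where it was high. Its having been tested is thus not independent of that level. Without that filter edgeR gave 2.52 on the log2 scale for KO untreated against WT DMSO (adjusted p = 0.00394).

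Without the drug, Ccl5 was 5.65-fold higher in KO than in WT (log2 fold change 2.50 ± 0.35, edgeR adjusted p = 0.00206), and 5.82-fold higher without WT DMSO 4 (adjusted p = 0.00743). The call was lost when only those 2 groups were fitted (adjusted p = 0.0576) and held when any 1 library was left out (adjusted p of at most 0.00895), including the library labelled KO untreated 1. The level in KO CDDO-Me was 0.333 times that in KO untreated (-1.58 ± 0.31 on the log2 scale), outside the threshold with an edgeR adjusted p of 0.0682 and inside it without WT DMSO 4 (0.0361) and by DESeq2 (0.00636). Under the drug the KO minus WT log2 difference was 1.12 ± 0.36 (edgeR adjusted p = 0.110). The drug responses of Ccl5 differed by -1.38 ± 0.51 between KO and WT (edgeR adjusted p = 0.420), or -1.41 without WT DMSO 4. The sum of the lymphocyte markers lay between 6.03 and 7.80 CPM in KO untreated against 3.55 to 6.04 CPM in WT DMSO. By edgeR 0 of 4 tested markers passed there, also at an unadjusted p under 0.05, while without WT DMSO 4 1 of 5 was higher at that p, and 0 of 16 were at 0 in a whole group. Of the 16 Kupffer cell and macrophage markers, 7 were higher and 0 lower in KO untreated at an unadjusted p under 0.05, and 1 was called, Adgre1, with 36.8 ± 10.7 CPM in KO untreated and 16.8 ± 2.93 CPM in WT DMSO (SD, n = 4 each, edgeR adjusted p = 0.00749, and 0.0189 without WT DMSO 4). The part of these cells in the Ccl5 difference was not tested.

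Ccl24 (eotaxin-2), a ligand of CCR3 that draws eosinophils, was highest in the WT livers given the drug. Ccl24 had 1.01, 1.10, 1.15 and 0.997 CPM in KO CDDO-Me, 2.05, 2.08, 2.53 and 1.65 CPM in WT CDDO-Me, 1.02, 1.11, 1.27 and 0.639 CPM in KO untreated and 1.57, 1.04, 1.2 and 0.505 CPM in WT DMSO. By CPM the WT CDDO-Me libraries lay above the other 12, by a narrow margin on few reads. The nearest values were 1.65 CPM on 18 reads in WT CDDO-Me 4 and 1.57 CPM on 23 reads in WT DMSO 1. By FPKM they overlapped, with 0.949 in WT CDDO-Me 4 against 1.42 in WT DMSO 1. Of the 293 reads in WT CDDO-Me, 215 lay in WT CDDO-Me 1. In WT CDDO-Me against WT DMSO the log2 difference was 0.96 ± 0.32 (edgeR adjusted p = 0.191), and 0.71 without WT DMSO 4, which was the lowest of the 16. In KO CDDO-Me against WT CDDO-Me it was -0.96 ± 0.31 (edgeR adjusted p = 0.107), and the value passed without WT DMSO 4 (0.0418) and when only those 2 groups were fitted (0.0202). The 2 drug responses differed by -0.88 ± 0.45 (edgeR adjusted p = 0.624), or -0.63 without that library.

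Ccl6 and Ccl9 are related CC chemokines of rodents that myeloid cells make, and Ccl6 averaged higher with the drug in both genotypes. Ccl6 had 4.21, 6.65, 6.85 and 6.12 CPM in KO CDDO-Me, 4.18, 9.38, 4.98 and 7.53 CPM in WT CDDO-Me, 1.88, 3.62, 3.82 and 3.41 CPM in KO untreated and 2.05, 3.89, 4.15 and 5.10 CPM in WT DMSO. By CPM KO CDDO-Me did not overlap KO untreated, while the 2 WT groups overlapped. By FPKM the KO groups overlapped too, with 2.37 in KO CDDO-Me 1 against 2.48 in KO untreated 2. The log2 difference was 0.90 ± 0.31 in KO (edgeR adjusted p = 0.238) and 0.76 ± 0.31 in WT (edgeR adjusted p = 0.282), and 0.94 in WT without WT DMSO 4. Ccl9 averaged 45.2 ± 6.53 CPM in KO CDDO-Me, 33.6 ± 3.95 CPM in WT CDDO-Me, 31.5 ± 16.5 CPM in KO untreated and 42.0 ± 39.7 CPM in WT DMSO, the last with 101 CPM in 1 library. For KO CDDO-Me against WT CDDO-Me Ccl9 passed edgeR when only those 2 groups were fitted (0.44 on the log2 scale, adjusted p = 0.0457) and not on all libraries (0.723).

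Kupffer cell and macrophage markers moved alongside in WT livers. Their sums were 671 to 899 CPM in WT CDDO-Me against 425 to 454 CPM in WT DMSO. In KO livers the sums were 676 to 905 CPM with CDDO-Me against 392 to 759 CPM untreated. Of 16 markers, 4 rose with the drug in WT (Marco, Cd5l, Adgre1 and Clec4f) and 0 passed in KO, against 0.728% and 0.130% of all genes called. In KO 5 were higher and 1 lower by edgeR at an unadjusted p under 0.05, against 6.24% and 9.58% of all genes. Adgre1 and Clec4f lost their calls without WT DMSO 4 (0.0714 and 0.0602). Marco, a macrophage scavenger receptor, had 12 ± 2.44 CPM in KO CDDO-Me, 43.6 ± 15.9 CPM in WT CDDO-Me, 24.0 ± 9.53 CPM in KO untreated and 11.9 ± 4.45 CPM in WT DMSO (SD, n = 4 each), with an edgeR adjusted p of 0.004 for KO against WT under the drug and 0.0124 for the drug in WT. Its drug responses differed by -2.86 ± 0.47 on the log2 scale between KO and WT (edgeR adjusted p = 0.0155, and 0.0118 without WT DMSO 4). No marker of the list was at 0 in any group, and its part in the Ccl24 and Ccl6 values was not tested.

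Ccl2, the monocyte attractant that signals through CCR2, varied between single libraries. Ccl2 had 0.728, 0.287, 0.127 and 0.447 CPM in KO CDDO-Me, 1.26, 5.13, 0.395 and 0.0918 CPM in WT CDDO-Me, 0.305, 0.579, 0.755 and 0.767 CPM in KO untreated and 0.546, 0.555, 0.134 and 24.1 CPM in WT DMSO. WT DMSO 4 and WT CDDO-Me 2 were high, and every pair of groups overlapped. KO untreated stood at -3.40 ± 1.26 against WT DMSO on the log2 scale (adjusted p = 0.207 by edgeR), and 0.56 without WT DMSO 4. The sign also turned for WT CDDO-Me against WT DMSO, with -1.90 ± 1.17 (edgeR adjusted p = 0.421) on all libraries and 2.06 ± 0.93 (0.205) without that one. The neighbouring monocyte attractant Ccl7 and the leukocyte attractants Ccl3 and Ccl4 peaked in WT DMSO 4 at 2.57, 2.43 and 1.74 CPM. Ccl22, a ligand of CCR4, peaked there at 0.872 CPM. Outside WT DMSO 4, these 4 untested chemokines stayed at or below 1.12 CPM, the value of Ccl7 in WT CDDO-Me 2.

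Cxcl1 showed the largest change of the set that passed the test. Cxcl1 (KC), a neutrophil attractant that acts on CXCR2 and whose promoter is printed above, lies at chr5:90891241-90893115 on the plus strand. Cxcl1 had 44.0, 84.3, 146 and 279 CPM in KO CDDO-Me, 154, 141, 89.1 and 119.5 CPM in WT CDDO-Me, 12.3, 16.8, 7.60 and 11.8 CPM in KO untreated and 168, 115, 42.9 and 275 CPM in WT DMSO. The 4 KO untreated libraries were the lowest of the 16, and the other 3 groups overlapped one another. These levels rest on 15570 reads in the KO CDDO-Me libraries, 1028 in KO untreated and 10743 in WT DMSO.

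In KO livers Cxcl1 was 11.4-fold higher with CDDO-Me than untreated (log2 fold change 3.51 ± 0.56, edgeR adjusted p = 0.0158; 0.00559 without WT DMSO 4). The call was lost without KO untreated 1, 2 or 3 (adjusted p = 0.0671, 0.0603 and 0.0573) and without the 4 intron-rich libraries (0.118), with log2 fold changes of 3.35 to 3.86 in these fits. Without the drug, Cxcl1 was lower in KO than in WT by -3.63 ± 0.56 in log2 units (edgeR adjusted p = 0.00449), or -3.16 without WT DMSO 4 (0.0083). That call was lost without the 4 intron-rich libraries (log2 fold change -4.06, adjusted p = 0.0707) and held when any 1 library was left out (at most 0.0192). The log2 difference was 0.14 ± 0.51 for KO CDDO-Me against WT CDDO-Me (edgeR adjusted p = 0.940) and -0.25 ± 0.51 for WT CDDO-Me against WT DMSO (edgeR adjusted p = 0.813), the second turning to 0.22 without WT DMSO 4. The KO minus WT difference in drug response was 3.77 ± 0.74, with an edgeR adjusted p of 0.0625, or 0.0745 without WT DMSO 4 and 4.59e-05 by DESeq2. Its KO side also holds the solvent injection. By edgeR that difference passed without WT DMSO 3 (0.0163) or KO CDDO-Me 1 (0.0281).

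Neutrophil and monocyte markers moved with Cxcl1 in KO livers through 1 gene, Prtn3. The list summed to 13.9 to 36.5 CPM in KO CDDO-Me and 7.17 to 8.63 CPM in KO untreated. In WT livers they summed to 15.3 to 23.3 CPM with the drug and 7.56 to 51.4 CPM with DMSO. Of 16 markers 9 were tested, and 1 rose with the drug in KO by edgeR, against 0.105% of all genes. At an unadjusted p under 0.05 1 was higher and 1 lower, against 6.24% and 9.58% of all genes. The 1 called was Prtn3, a granule protease, with 17.6, 26.4, 6.21 and 5.64 CPM in KO CDDO-Me and 0.203, 0.579, 0.566 and 0.852 CPM in KO untreated (edgeR adjusted p = 0.00928). The granule peptide gene Camp was at 0 in all KO CDDO-Me libraries, and Ly6g, Camp and Elane were at 0 in all KO untreated libraries. The other 15 markers, a sum formed after the values were seen, came to 7.71 to 10.4 CPM in KO CDDO-Me and 6.61 to 8.43 CPM in KO untreated, which overlap. Among the KO CDDO-Me libraries Prtn3 was highest in 1 and 2 and Cxcl1 in 3 and 4. Other markers peaked in different libraries, for example Ccr2 in 1, S100a8 in 2, Cxcr2 in 3, and Csf3r and S100a9 in 4. The part of these markers in the Cxcl1 change was not tested.

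**Figure D2:**
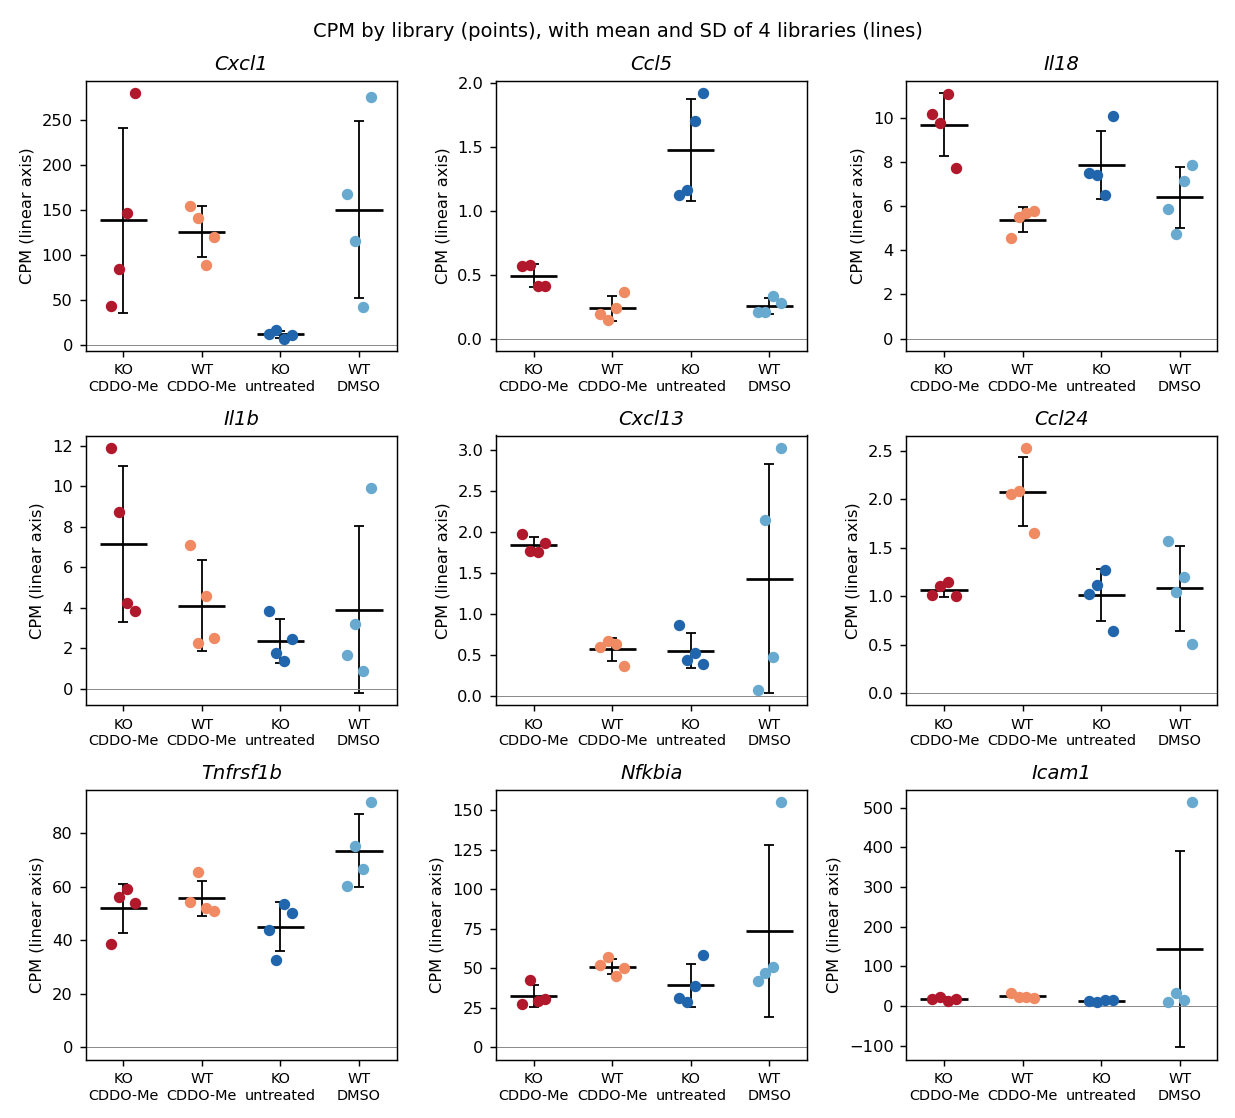
CPM of 9 members in each library (points) by group, with the mean (wide line) and SD (whiskers) of 4 libraries on linear axes. Cxcl1 sits at 7.60 to 16.8 CPM in KO untreated and at 42.9 CPM or more elsewhere, Ccl5 is highest in KO untreated, and the Icam1 and Nfkbia means of WT DMSO are raised by 1 library.

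Cxcl2, the neighbour of Cxcl1 with the same promoter element, was much less abundant. Cxcl2 had 0.445, 0.862, 0.287 and 0.653 CPM in KO CDDO-Me, 0.505, 1.49, 0 and 0.0918 CPM in WT CDDO-Me, 0.305, 0.290, 0 and 0.170 CPM in KO untreated and 0.478, 0.416, 0.201 and 11.6 CPM in WT DMSO. All groups overlapped, and WT DMSO 4 was the highest library. Its log2 fold changes were -2.60 ± 1.12 for WT CDDO-Me against WT DMSO (edgeR adjusted p = 0.295) and -4.07 ± 1.24 for KO untreated against WT DMSO (edgeR adjusted p = 0.123). Leaving out WT DMSO 4 gave 0.54 and -0.92. The KO minus WT difference in drug response was 4.13 ± 1.69 (edgeR adjusted p = 0.496), and 0.99 without that library. In KO the drug difference was 1.53 ± 1.28 on 57 reads in KO CDDO-Me and 16 in KO untreated (edgeR adjusted p = 0.525), and 1.53 ± 0.84 without WT DMSO 4 (0.298).

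Cxcl13, the B cell attractant that acts on CXCR5, was even across the KO livers given the drug. Cxcl13 had 1.98, 1.77, 1.75 and 1.86 CPM in KO CDDO-Me, 0.590, 0.670, 0.632 and 0.367 CPM in WT CDDO-Me, 0.863, 0.434, 0.519 and 0.384 CPM in KO untreated and 0.0682, 2.15, 0.468 and 3.03 CPM in WT DMSO. These levels rest on 195 reads in KO CDDO-Me, 83 in WT CDDO-Me, 46 in KO untreated and 105 in WT DMSO. The KO CDDO-Me libraries lay above both WT CDDO-Me and KO untreated, while WT DMSO spread over the whole range. The log2 difference was 1.74 ± 0.62 against KO untreated (edgeR adjusted p = 0.242) and 1.68 ± 0.63 against WT CDDO-Me (edgeR adjusted p = 0.169, and 0.00208 when only those 2 groups were fitted). For KO untreated against WT DMSO it was -1.40 ± 0.63 (edgeR adjusted p = 0.317), or -0.70 without WT DMSO 4. The drug responses differed by 3.08 ± 0.89 between KO and WT (edgeR adjusted p = 0.25, and 0.0404 by DESeq2), or by 2.38 without that library.

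Cxcl16, a membrane-bound ligand of CXCR6, averaged 8.57 ± 1.32 CPM in KO CDDO-Me, 6.87 ± 0.461 CPM in WT CDDO-Me, 7.67 ± 2.31 CPM in KO untreated and 8.40 ± 4.72 CPM in WT DMSO. None of its comparisons reached an unadjusted p under 0.05. Cxcl5, another CXCR2 ligand, was not tested. It had 423 reads in WT DMSO 4 and at most 32 in any other library, or 19.4 CPM against at most 0.967 CPM.

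**Figure D3:**
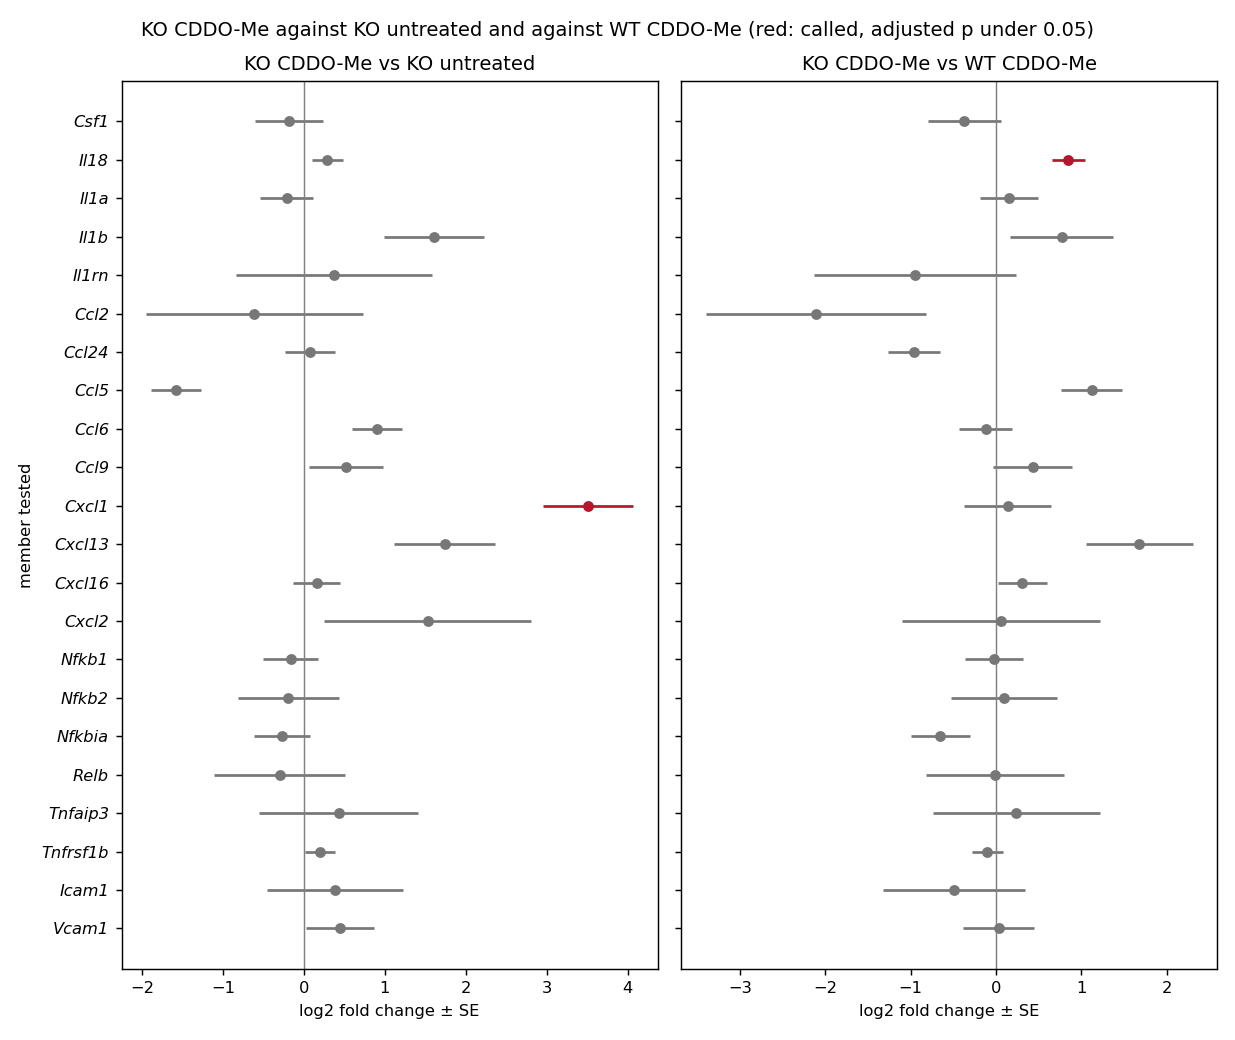
Log2 fold change ± SE of the 22 tested members for KO CDDO-Me against KO untreated (left) and against WT CDDO-Me (right), with members passing edgeR at an adjusted p under 0.05 in red. Cxcl1 at 3.51 is the called member on the left and Il18 at 0.85 on the right.

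Among the NF-kB genes themselves, none of the 6 passed edgeR in any comparison on all libraries, and the WT DMSO mean was set by 1 library in most. At an unadjusted p under 0.05, 5 of the 6 were lower with the drug in WT, against 8.42% of all genes. In KO untreated 6 were lower than in WT DMSO, against 7.46%. Without WT DMSO 4 these counts were 0 and 1, against 12.1% and 6.38% of all genes. Nfkb1 encodes p105/p50 and Nfkb2 p100/p52, the subunits cut from longer precursors. Nfkb1 had 36.3, 38.2, 35.3 and 38.0 CPM in KO CDDO-Me, 42.1, 41.4, 32.5 and 33.5 CPM in WT CDDO-Me, 47.8, 43.2, 36.2 and 38.2 CPM in KO untreated and 42.0, 56.7, 33.7 and 159.7 CPM in WT DMSO. Nfkb2 had 11.1, 13.3, 7.71 and 12.1 CPM in KO CDDO-Me, 12.9, 11.4, 6.56 and 10.3 CPM in WT CDDO-Me, 10.5, 8.40, 12.2 and 19.1 CPM in KO untreated and 12.1, 18.2, 9.37 and 129 CPM in WT DMSO. In both genes the other 15 libraries overlapped between groups.

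For Nfkb1 the log2 difference was -0.97 ± 0.35 for WT CDDO-Me against WT DMSO (edgeR adjusted p = 0.224) and -0.82 ± 0.35 for KO untreated against WT DMSO (edgeR adjusted p = 0.281), or -0.23 and -0.09 without WT DMSO 4. For Nfkb2 the corresponding values were -2.03 ± 0.64 (edgeR adjusted p = 0.173, and 0.0252 by DESeq2) and -1.76 ± 0.63 (edgeR adjusted p = 0.191), or -0.35 and -0.07 without it. Relb, the partner of p52 in the non-canonical pathway, had 2.79, 3.73, 2.48 and 3.34 CPM in KO CDDO-Me, 4.53, 4.91, 1.26 and 1.29 CPM in WT CDDO-Me, 3.35, 1.83, 3.59 and 6.31 CPM in KO untreated and 3.48, 5.55, 1.87 and 56.2 CPM in WT DMSO. Again a single library was high and the others overlapped. The Relb log2 difference was -2.44 ± 0.83 for WT CDDO-Me against WT DMSO (edgeR adjusted p = 0.201) and -2.16 ± 0.82 for KO untreated against WT DMSO (edgeR adjusted p = 0.220), or -0.22 and 0.06 without WT DMSO 4.

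Nfkbia encodes the inhibitor IkB alpha, itself an NF-kB target that closes the loop, and its promoter is printed above. Nfkbia had 27.7, 42.8, 29.1 and 30.5 CPM in KO CDDO-Me, 51.9, 56.9, 45.4 and 50.3 CPM in WT CDDO-Me, 31.0, 28.5, 38.7 and 58.6 CPM in KO untreated and 42.1, 46.9, 51.1 and 155 CPM in WT DMSO. By CPM all KO CDDO-Me libraries lay below all WT CDDO-Me libraries, while KO untreated overlapped WT DMSO. By FPKM the drug-treated groups overlapped, with 25.9 in KO CDDO-Me 2 against 23.2 in WT CDDO-Me 4. Under the drug the KO minus WT log2 difference was -0.65 ± 0.35 (edgeR adjusted p = 0.371, and 0.0763 without WT DMSO 4), and it passed when only those 2 groups were fitted (-0.64, adjusted p = 0.0144). For KO untreated against WT DMSO it was -0.91 ± 0.35 (edgeR adjusted p = 0.228), or -0.25 without that library.

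Tnfaip3 encodes A20, a ubiquitin-editing enzyme that ends NF-kB signalling, and had the widest spread of this group. Tnfaip3 had 5.46, 14.3, 7.10 and 6.02 CPM in KO CDDO-Me, 8.15, 13.5, 2.53 and 3.21 CPM in WT CDDO-Me, 7.16, 4.68, 5.43 and 6.95 CPM in KO untreated and 5.80, 10.5, 3.88 and 247 CPM in WT DMSO. Apart from WT DMSO 4, the groups overlapped. Its log2 fold change was -3.27 ± 1.04 for WT CDDO-Me against WT DMSO (edgeR adjusted p = 0.175), -3.47 ± 1.04 for KO untreated against WT DMSO (edgeR adjusted p = 0.119) and 3.70 ± 1.41 for the difference in drug response (edgeR adjusted p = 0.430). Without WT DMSO 4 these values were 0.05, -0.15 and 0.38.

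Tnfrsf1b, the TNF receptor 2 gene, depended less on that library. Tnfrsf1b had 38.5, 56.2, 59.2 and 54.0 CPM in KO CDDO-Me, 54.4, 65.4, 52.0 and 50.9 CPM in WT CDDO-Me, 43.9, 32.8, 53.5 and 50.4 CPM in KO untreated and 60.4, 75.4, 66.5 and 91.6 CPM in WT DMSO. By CPM all KO untreated libraries lay below all WT DMSO libraries, and the drug-treated groups overlapped each other. By FPKM KO untreated and WT DMSO overlapped, with 16.1 in KO untreated 1 against 15.3 in WT DMSO 3. For KO untreated against WT DMSO the log2 difference was -0.70 ± 0.18 (edgeR adjusted p = 0.0716, and 0.015 by DESeq2), or -0.58 without WT DMSO 4 (0.148), and it passed without WT DMSO 1 (0.0497). For WT CDDO-Me against WT DMSO it was -0.40 ± 0.18 (edgeR adjusted p = 0.309), and the drug responses differed by 0.60 ± 0.26 (edgeR adjusted p = 0.513), or -0.27 and 0.48 without it.

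**Figure D4:**
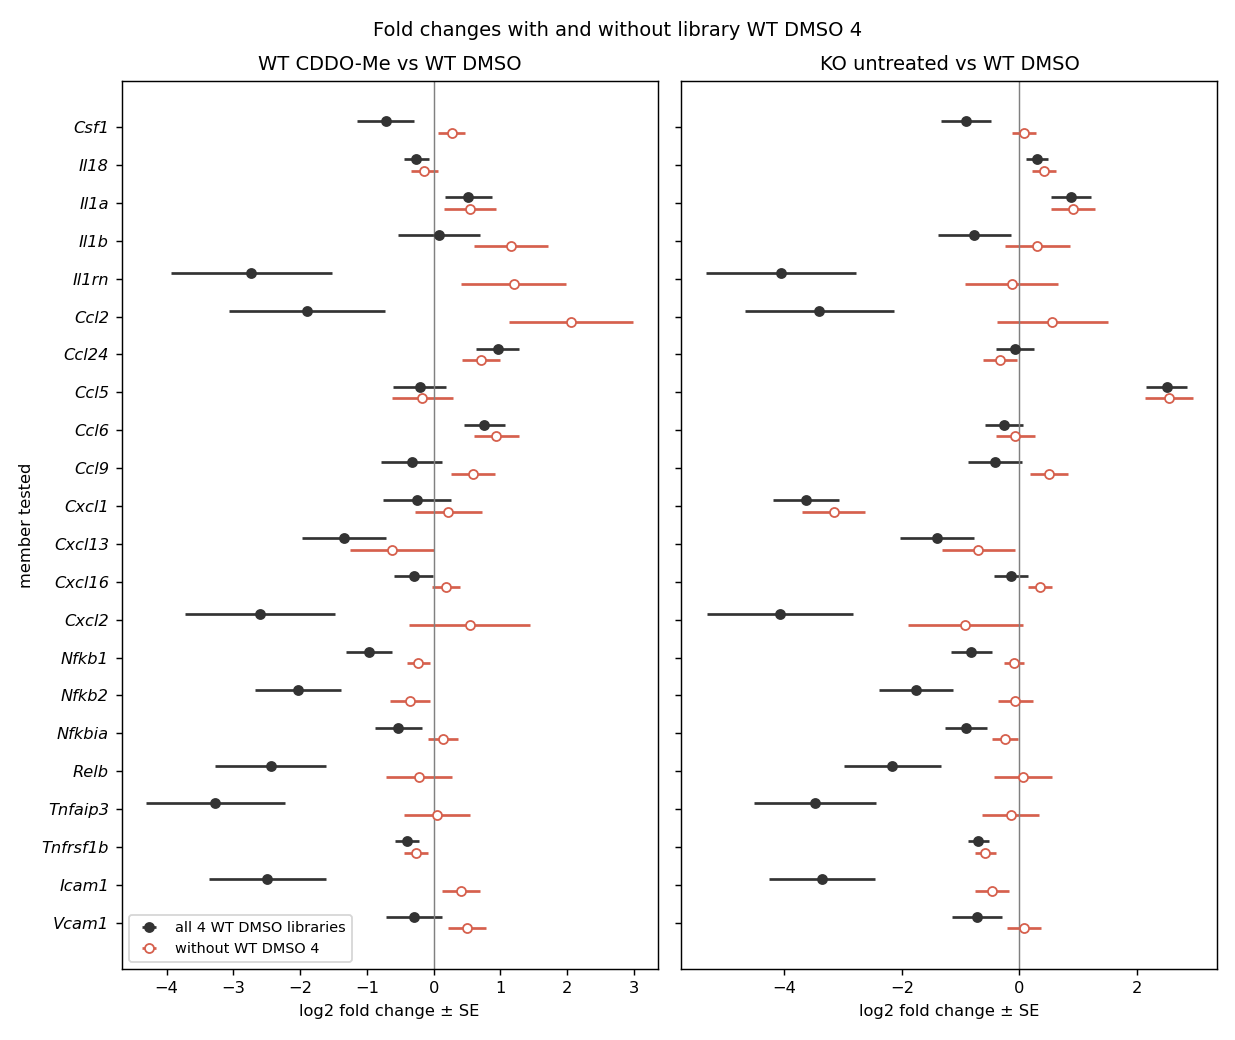
Log2 fold change ± SE of the 22 tested members for WT CDDO-Me against WT DMSO (left) and KO untreated against WT DMSO (right), from all libraries (filled) and without WT DMSO 4 (open). Tnfaip3 lies at -3.27 with the library and 0.05 without it on the left, while Cxcl1 at -3.63 and -3.16 and Ccl5 at 2.50 and 2.54 keep their place on the right.

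Icam1 and Vcam1, adhesion molecules that hold leukocytes at the sinusoid wall, also peaked in WT DMSO 4. Icam1 had 18.5, 22.5, 13.5 and 18.5 CPM in KO CDDO-Me, 33.9, 23.9, 22.7 and 21.2 CPM in WT CDDO-Me, 13.6, 11.1, 14.6 and 16.4 CPM in KO untreated and 10.5, 31.8, 15.7 and 514 CPM in WT DMSO. The WT DMSO group spanned the other 3 groups even without its highest library, except for 1 WT CDDO-Me value. EdgeR gave log2 fold changes of -2.49 ± 0.87 for WT CDDO-Me against WT DMSO (edgeR adjusted p = 0.212), -3.36 ± 0.90 for KO untreated against WT DMSO (edgeR adjusted p = 0.0829) and 2.88 ± 1.19 for the difference in drug response (edgeR adjusted p = 0.506). With WT DMSO 4 left out they were 0.41, -0.47 and -0.02, while without WT DMSO 1 or 3 the second passed (0.0291 and 0.0357). Vcam1 averaged 37.7 ± 5.87 CPM in KO CDDO-Me, 37.0 ± 9.65 CPM in WT CDDO-Me, 27.6 ± 11.4 CPM in KO untreated and 45.2 ± 38.0 CPM in WT DMSO, and no comparison reached an unadjusted p under 0.05.

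The endothelial selectin Sele and the inducible enzymes Nos2 (nitric oxide synthase) and Ptgs2 (cyclooxygenase 2) were not tested. Nos2 had 971 reads in WT DMSO 4 and at most 30 elsewhere, or 44.6 CPM against at most 0.914 CPM. Sele had 142 reads there and at most 61 elsewhere, or 6.52 CPM against at most 1.34 CPM, the value of WT CDDO-Me 2. Ptgs2 was highest in WT CDDO-Me 2 at 1.64 CPM, with 0.597 CPM in WT DMSO 4.

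Other genes of the NF-kB pathway outside the 33 formed a list of 38 adaptors, kinases, subunits and feedback inhibitors that were all tested. Of the 38, 7 fell and 0 rose in KO untreated relative to WT DMSO by edgeR, against 0.969% of all genes that fell. Their median log2 fold change was -0.84, with 5 positive. Without WT DMSO 4, 4 fell, where 1.28% of all genes were called in either direction, 11 were positive and the median was -0.17. Il1r1, the interleukin-1 receptor, had 67.6 ± 18.3 CPM in KO untreated and 364 ± 264 CPM in WT DMSO (SD, n = 4 each, edgeR adjusted p = 0.00693, and 0.00767 without that library). Bcl3, a nuclear member of the IkB family, had 14.5 ± 4.13 and 64.5 ± 42.6 CPM in KO untreated and WT DMSO (edgeR adjusted p = 0.0148, and 0.0253 without it). The calls of the feedback inhibitors Zc3h12a and Irak3 (edgeR adjusted p = 0.0431 and 0.0489) were lost without it (0.0822 and 0.109).

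Under CDDO-Me 2 of these 38 fell and 0 rose in KO relative to WT, against 2.23% of all genes that fell. Without WT DMSO 4, 5 fell, where 5.03% of all genes were called in either direction. Ikbkg, the NEMO subunit of the IkB kinase, had 105 ± 12.9 CPM in KO CDDO-Me and 211 ± 12.5 CPM in WT CDDO-Me (edgeR adjusted p = 0.000409). Tnfrsf1a, the TNF receptor 1 gene, had 55.9 ± 6.5 CPM in KO CDDO-Me and 107 ± 13.7 CPM in WT CDDO-Me (edgeR adjusted p = 0.0185). None of the 38 passed edgeR in either drug comparison or in the difference of drug responses on all libraries, while 1 rose with the drug in KO without WT DMSO 4. At an unadjusted p under 0.05, 4 were higher and 0 lower with the drug in KO, 3 higher and 13 lower in WT, and 9 higher and 0 lower for the difference. The balance turned in WT without WT DMSO 4, with 7 higher and 2 lower, and 2 were higher and 1 lower for the difference. These stand against the shares of all genes given above for each comparison. Of 24 chemokine and cytokine receptors 19 were tested, and 1 passed in any comparison. That was Ccr3, the eotaxin receptor, with 0.839 ± 0.210 CPM in KO untreated and 0.166 ± 0.127 CPM in WT DMSO (edgeR adjusted p = 0.0464, and 0.104 without WT DMSO 4).

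Acute phase genes are the hepatocyte response to interleukin-6 and interleukin-1. With CDDO-Me in KO, 3 of 27 rose and 0 fell by edgeR, against 0.105% of all genes that rose, with a median log2 fold change of 1.52. Without WT DMSO 4, 13 rose, where 0.816% of all genes were called in either direction. With CDDO-Me in WT, 0 of 27 were called, against 0.728% of all genes. At an unadjusted p under 0.05 1 was higher and 1 lower (median 0.33), against 6.91% and 8.42% of all genes. Without WT DMSO 4, 14 were higher and 0 lower at that p (median 0.91), against 10.9% and 12.1%. Itih3, an inter-alpha-trypsin inhibitor chain, had 3428 ± 910.0 CPM in KO CDDO-Me and 1235 ± 117 CPM in KO untreated (edgeR adjusted p = 0.0212). Mt1 (metallothionein 1) and Serpina3m were the other risers, with edgeR adjusted p-values of 0.0282 and 0.0121. In KO untreated against WT DMSO, 8 of 27 fell and 0 rose by edgeR, against 0.969% of all genes that fell. Without WT DMSO 4, 5 fell, where 1.28% of all genes were called in either direction. Orm3 (orosomucoid) had 0.767 ± 0.500 CPM in KO untreated and 6.77 ± 4.07 CPM in WT DMSO (edgeR adjusted p = 0.0142). Stress and immediate early genes gave 1 rise of 25 with the drug in KO (4 without WT DMSO 4), against 0.105% of all genes that rose (0.816% called without WT DMSO 4). It was Atf3 (13.8 ± 4.69 CPM in KO CDDO-Me and 1.43 ± 0.547 CPM in KO untreated, edgeR adjusted p = 0.03). In KO untreated against WT DMSO 5 of the 25 fell, against 0.969% of all genes that fell. Without WT DMSO 4, 2 fell, where 1.28% of all genes were called. Interferon response genes gave 0 calls of 30 on all libraries in these comparisons. At an unadjusted p under 0.05 by edgeR, 0 were higher and 6 lower with the drug in KO, against 6.24% and 9.58% of all genes. In KO untreated against WT DMSO 1 was higher and 7 lower at that p, against 6.65% and 7.46%. Without WT DMSO 4, 5 fell with the drug in KO, where 0.816% of all genes were called. In that fit 6 rose in KO untreated relative to WT DMSO, where 1.28% of all genes were called. The part of the solvent injection in these values cannot be told apart from that of the drug or genotype.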

How the data were processed

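For each of 16 libraries the authors deposited raw counts, whole numbers of reads on 33730 genes; 0 columns belonged to other samples. The submitters' processing notes name the build GRCm38.p5 and, with no role or order, DESeq2, HTSeq 0.6.1p1, TopHat2 2.1.0, cutadapt 1.2.1 and CASAVA 1.8.2. Annotation release, counting strand and filters are not given in those sources, so reads of overlapping genes on opposite strands may not be told apart. Per the labels, libraries were depleted of ribosomal RNA and directional. The FPKM table deposited by the authors equals the counts divided by a gene length and the library total within a relative deviation of 8.7e-07. GENCODE M21 (GRCm38) matched 33629 IDs, and all 33 members matched 1 row each.

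Counts were tested in R 4.3.3 with edgeR 4.0.16 (quasi-likelihood, TMM scaling, filterByExpr by group) over all 16206 genes kept, with 12 residual degrees of freedom and Benjamini-Hochberg adjustment over those genes. CPM values are TMM-scaled. The fit without WT DMSO 4 kept 16292 genes. Standard errors are on the log2 scale. Alternatives used DESeq2 1.42.0 and limma 3.58.1. The edgeR step was tested on simulated data.

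The members and gene lists were chosen with earlier results of these data known. By rule, fold changes are given where an unadjusted p was under 0.05 (41 of 110 member and comparison pairs, others being given where described), values in every library for members called, below that p in at least 2 comparisons, or named as Tnf, Il1b, Il6, Ccl2 and Nfkbia, and at most 4 called genes in each direction of other lists. Deviations from the group means correlated between all 4 same-number pairs of KO untreated and WT DMSO libraries (0.39 to 0.52). The libraries numbered 1 and 2 are the intron-rich ones in both groups. The labels do not say what the numbers mark and give no pairing. The main fit used none, and a replicate block was run as an alternative only.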

Additional observations from a re-analysis of the deposited data

Results flagged for a closer look

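In each group of 4 libraries, the highest and lowest value of each member was set against the range of its group, and 32 of 132 groups had 1 library whose gap to the nearest other exceeded Dixon's 95% limit. That limit holds for normally distributed values, whereas linear CPM were used here, also for members with few reads. The same share over all genes was not computed, so the count cannot be set against chance. The library WT DMSO 4 accounted for 22 of the 32, each time as the highest of its group.

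Among the chemokines, the CPM in WT DMSO 4 was 24.1 for Ccl2, 0.872 for Ccl22, 2.43 for Ccl3, 1.74 for Ccl4, 2.57 for Ccl7 and 101 for Ccl9. For the CXC chemokines it was 15.5 for Cxcl16, 11.6 for Cxcl2 and 19.4 for Cxcl5. The NF-kB genes stood at 129 CPM for Nfkb2, 155 CPM for Nfkbia, 56.2 CPM for Relb and 247 CPM for Tnfaip3. The adhesion molecules and enzymes stood at 514 CPM for Icam1, 102 CPM for Vcam1, 6.52 CPM for Sele, 44.6 CPM for Nos2 and 0.597 CPM for Ptgs2. The cytokines stood at 44.0 CPM for Csf1, 143 CPM for Il1rn, 0.689 CPM for Il6 and 1.42 CPM for Tnf. The range of the other 3 WT DMSO libraries was 10.5 to 31.8 CPM for Icam1 and 3.88 to 10.5 CPM for Tnfaip3.

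The other 10 were spread over 8 libraries, and several rest on few reads. KO CDDO-Me 2 was high for Ccl22 at 0.335 CPM and for Nos2 at 0.383 CPM, KO CDDO-Me 1 for Il1a at 6.23 CPM and KO CDDO-Me 4 for Ptgs2 at 0.275 CPM. WT CDDO-Me 1 was the 1 library of its group with a read of Ccl3, at 0.0476 CPM, and WT CDDO-Me 2 was high for Ptgs2 at 1.64 CPM. WT CDDO-Me 3 was low for Vcam1 at 22.6 CPM, where the others had 40.8 to 42.7 CPM. KO untreated 3 was high for Ccl3 at 0.189 CPM, and KO untreated 4 for Csf1 at 12.5 CPM and Il1rn at 5.37 CPM.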

How the results depend on the processing

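Of the 41 member results with an unadjusted p under 0.05, 33 kept their direction under every alternative run and 8 did not, all when WT DMSO 4 was left out. Over the fits that leave out 1 library, of which the one without WT DMSO 4 gave the value at the turned end, the log2 fold changes of WT CDDO-Me against WT DMSO ran from -3.49 to 0.54 for Cxcl2, -3.78 to 0.05 for Tnfaip3, -2.88 to 0.41 for Icam1 and -3.51 to 1.2 for Il1rn. Those of KO untreated against WT DMSO ran from -3.81 to 0.56 for Ccl2, -2.54 to 0.06 for Relb and -1.18 to 0.08 for Csf1, and the difference in drug response of Icam1 from -0.02 to 3.27. Without both WT DMSO 4 and WT CDDO-Me 1, the deepest library, they were 0.58 for Cxcl2, 0.23 for Icam1, 1.12 for Il1rn, 0.55 for Ccl2, 0.06 for Relb and 0.08 for Csf1.

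Among the comparisons of 2 groups, all same-number pairs correlated by more than 0.10 only for KO untreated with WT DMSO. In the other 3 comparisons at least 1 same-number pair correlated by 0.10 or less, and 9 of 16 libraries correlated best with their own number. A replicate block changed no member call on all libraries; with it the genes called in the 5 comparisons, in the order WT drug, KO drug, genotype without drug, genotype under drug and difference in drug response, were 226, 46, 250, 811 and 42, and 0, 1, 2, 1 and 0 members. In that order the genes called on all libraries were 118, 21, 223, 534 and 21. DESeq2 called 450, 292, 607, 1044 and 173 genes, and 1, 2, 3, 2 and 2 members. Without a filter on low counts, 51 genes were called for the KO drug and 38 for the difference, and 1 member for the WT drug (Ccl3), 4 for genotype without drug and 1 for the difference. Limma on log2(FPKM + 1) and on log2(FPKM + 0.1) called 67 and 55 genes for the KO drug, 959 and 970 for genotype under drug and 57 and 54 for the difference, with 2 members each for the KO drug and for genotype under drug, and on the first scale 1 for the difference. FPKM are not TMM-scaled, and they moved the median of all genes for the KO drug to -0.13 and -0.22, and the split of higher and lower calls for genotype without drug to 168 and 83, or 145 and 89, against 66 and 157. Fitting only the 2 groups compared called 72 genes for the WT drug, 20 for genotype without drug and 2045 for genotype under drug, with 1 and 5 members for the last 2. The share of sense intronic and TEC genes as covariate called 86, 824, 2168 and 201 genes from the KO drug onwards, with 2 members for the KO drug, 3 for genotype under drug and 1 for the difference. Without the 4 intron-rich libraries 4, 86, 1482 and 67 genes were called from the KO drug onwards, with 0, 1 and 2 members before the difference. Without WT DMSO 4 and WT CDDO-Me 1, 88 genes and 2 members were called for the KO drug and 0 members for genotype under drug. Leaving out 1 library gave 54 to 219, 4 to 133, 104 to 271, 265 to 820 and 18 to 48 genes and 0 to 0, 0 to 2, 2 to 4, 0 to 2 and 0 to 1 members; the causes were not tested. Depth limits members such as Tnf and Il6, which had at most 31 and 15 reads in a library.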

Other observations

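The library WT CDDO-Me 2 held several of the highest values of the members outside WT DMSO 4. Its CPM was 5.13 for Ccl2, 1.12 for Ccl7, 0.967 for Cxcl5, 13.5 for Il1rn, 1.64 for Ptgs2 and 1.34 for Sele. In the other 3 WT CDDO-Me libraries Ccl2 had 1.26, 0.395 and 0.0918 CPM and Il1rn 6.43, 0.790 and 1.84 CPM. These genes were chosen after their values were seen.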
